A study of Mus musculus with 12 samples.

Results

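The 10 genes described here are targets of canonical Wnt signalling that restrain the pathway when it is switched on, together with 2 of the transcription factors that carry out its response. They are the intracellular inhibitors Axin2 and Nkd1, the secreted inhibitors Notum, Wif1 and Dkk2, the membrane inhibitors Apcdd1, Rnf43 and Znrf3, and the TCF factors Lef1 and Tcf7. They were chosen by name, as known members of this feedback, from the 25705 genes in the deposited expression table, and all 10 were found there.

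In canonical Wnt signalling, secreted Wnt proteins bind Frizzled receptors and LRP co-receptors and stop a cytoplasmic destruction complex, built on Axin and Apc, from marking beta-catenin for degradation. Beta-catenin then enters the nucleus and activates genes with the TCF/LEF family of DNA-binding proteins. Some of the activated genes encode inhibitors of the pathway itself, and in intestinal tumours that have lost Apc these feedback genes are known to be expressed strongly.

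RNA was measured by RNA sequencing in colonic adenomas of C57BL/6J mice that all carried the ApcMin/+ genotype, a truncating mutation of Apc that gives rise to intestinal adenomas, and that were taken at 150 to 160 days of age. The 12 samples form 4 groups of 3, which differ in Tet1, an enzyme that oxidises 5-methylcytosine, and in Tdg, a glycosylase that removes the oxidised bases. The Tet1-null group was Tet1-/- and Tdg+/+, the double-heterozygous group Tet1+/- and TdgN151A/+, the Tdg-heterozygous group Tet1+/+ and TdgN151A/+, and the control group Tet1+/+ and Tdg+/+. The design asks what reduced Tet1 or Tdg function changes in RNA of adenomas that share the Apc mutation, and since Apc is mutated in every group, no sample shows these genes without it. Whether each sample came from its own animal is not stated in the labels, so the spread between samples may be technical in part. Libraries are named by group and by their column number, 0 to 2, in the table.

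Values are in FPKM, fragment numbers scaled to transcript length and to library size, so levels of different genes can be compared per length. Column totals ranged from 663550.6 to 977281.6 FPKM and 13692 to 14384 genes per library reached 1 FPKM. The highest total was that of Tdg-heterozygous library 2 and the next, 872288.7, that of Tet1-null library 1. These libraries also had the fewest genes at 1 FPKM, 13692 and 13873, while double-heterozygous library 0 had the most. No read counts are given, so the depth is unknown. The tissue label was checked against epithelial markers: Epcam was at 753.3 to 1856 FPKM in the 12 libraries, while the intestinal identity gene Cdx2 ranged from 0.162 FPKM in Tet1-null library 0 to 19.6 in control library 0.

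Promoter sequences are shown because the members moved together across libraries and because the study concerns enzymes that act on methylated CpG. RefSeq promoter windows of 300 bases, 250 before and 50 after a transcript start (GRCm38.p6), were held for 7 of the 10 members, 12 windows in all. CpG density differed widely among them, from 3 CpG in 1 window of Rnf43 to 45 in 1 window of Tcf7, beside a median of 7 over all 32851 windows. The Axin2 window holds 31 CpG, more than 89.4% of windows, and the Nkd1 window holds 6, more than 43.6%. The 250 bases before the start of each follow, on the plus strand, which is the coding strand, with every CpG in capitals. The Axin2 stretch (chr11:108920099-108920348) overlaps no gene of GENCODE M21 and ends at the base before the annotated gene. The Nkd1 stretch (chr8:88527383-88527632) lies in an intron of the GENCODE gene, upstream of the RefSeq start.
Axin2: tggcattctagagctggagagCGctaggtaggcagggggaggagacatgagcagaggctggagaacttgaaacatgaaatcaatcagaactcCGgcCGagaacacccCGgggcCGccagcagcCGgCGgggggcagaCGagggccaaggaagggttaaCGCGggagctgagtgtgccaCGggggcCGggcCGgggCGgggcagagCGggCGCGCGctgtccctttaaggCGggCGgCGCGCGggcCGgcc
Nkd1: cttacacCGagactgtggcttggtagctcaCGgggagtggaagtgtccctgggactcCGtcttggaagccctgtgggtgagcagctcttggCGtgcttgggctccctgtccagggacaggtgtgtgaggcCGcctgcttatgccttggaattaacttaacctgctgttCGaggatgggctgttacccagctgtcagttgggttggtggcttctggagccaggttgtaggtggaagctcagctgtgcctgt

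The windows were also searched on both strands for the TCF/LEF core CTTTGA, and for the longer CTTTGAT that contains it. The core was found in 1 of the 12 windows, and in 16.0% of all 32851 windows. The longer form was in 0 of the 12, and in 3.73% of all. The window with the core belongs to the most downstream of 4 Lef1 starts in RefSeq, and its stretch before the start (chr3:131156044-131156293) lies in an intron of the GENCODE gene. It holds the core at positions 71 to 76 and 131 to 136 from its 5′ end, on the reverse strand, written in capitals below. A match describes these letters and not a binding site.
Lef1: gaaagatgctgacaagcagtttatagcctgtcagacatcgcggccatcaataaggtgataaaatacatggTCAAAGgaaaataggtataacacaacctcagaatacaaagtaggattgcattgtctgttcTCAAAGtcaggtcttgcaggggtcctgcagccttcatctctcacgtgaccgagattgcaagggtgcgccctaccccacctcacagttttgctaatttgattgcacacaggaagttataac

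The feedback genes were abundant in the control adenomas, where Wif1 was the highest at 308.8 ± 71.8 FPKM (SD, n = 3) and Notum followed at 168.2 ± 31.8. The next levels were those of Axin2 (112.4 ± 9.52), Rnf43 (104.9 ± 13.6) and Nkd1 (96.8 ± 11.3), whose control libraries overlapped between neighbours in this order. Apcdd1 (53.2 ± 22.6), Tcf7 (29.6 ± 3.73) and Dkk2 (28.7 ± 9.40) came after them and also overlapped between neighbours. Znrf3 (15.1 ± 1.66) and Lef1 (13.5 ± 3.18) were lowest and overlapped each other. No control library of Wif1 overlapped those of Notum, none of Notum those of Axin2, none of Nkd1 those of Apcdd1, and none of Dkk2 those of Znrf3. Beta-catenin's own RNA, Ctnnb1, was at 403.9 to 657.9 FPKM in the 12 libraries.

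In these genes 3 libraries stood apart, 1 in each mutant group. Tet1-null library 1 had the lowest of the 12 values for 10 of 10 members, at 0.416 to 20.1% of the control mean with a median of 3.11%. Tdg-heterozygous library 2 was next lowest for 10 of 10, at 3.99 to 44.7% with a median of 13.3%. Double-heterozygous library 0 came next for 9 of 10, at 17.6 to 80.0% with a median of 42.8%, and the exception was Dkk2. At the other end, Tet1-null library 0 was the highest of 12 for 8 members, at 119.0 to 294.9% with a median of 164.4%. Averaged over members as log2(FPKM + 1), the deviation from the control mean was -4.01, -2.71 and -1.24 in the 3 low libraries and 0.75 in Tet1-null library 0, and it lay between -0.15 and 0.31 in the other 8. In such bulk samples fewer cells of a type and less RNA per cell cannot be told apart.

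**Figure D1:**
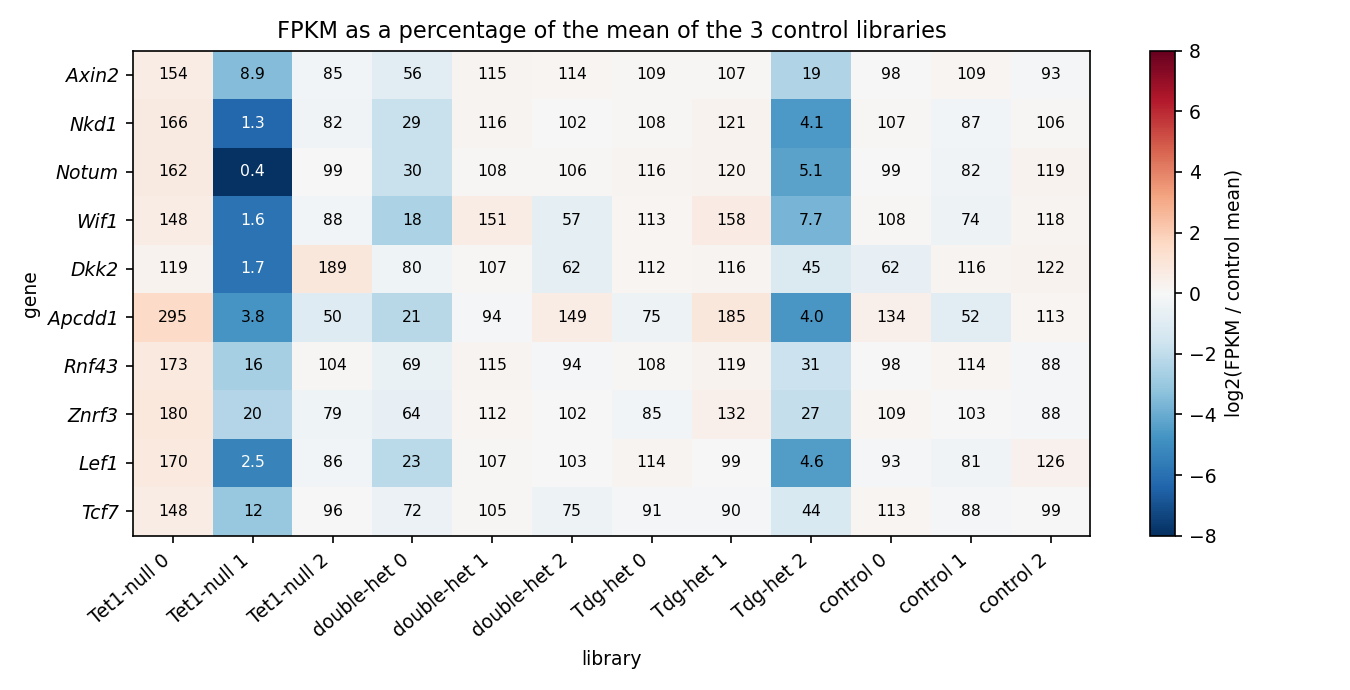
Each cell gives the FPKM of a gene (row) in a library (column) as a percentage of the mean of the 3 control libraries, coloured by its log2 ratio to that mean. The columns of Tet1-null 1, Tdg-het 2 and double-het 0 are blue throughout, from 0.416% for Notum in Tet1-null 1 to 80.0% for Dkk2 in double-het 0.

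These 3 libraries also differed in markers of cell types, given here for whole lists as summed FPKM. Epithelial markers (8 of 8 tested) summed to 10390 FPKM in Tet1-null library 1, to 13720 in library 2 of the Tdg-heterozygous group and to 7848 in double-heterozygous library 0, above the 3472 to 6562 of the other 9. Krt8 and Krt19 made up 3551 and 3483 of the first sum, and 2273 and 2211 of the last. Within the range of the other 9 were Epcam, Krt18 and Cdx2 in Tet1-null library 1, and Epcam, Vil1 and Cdx2 in double-heterozygous library 0. In Tdg-heterozygous library 2 only Cdx2 was within it. All remaining genes of the list were above it. Differentiated colonocyte markers (7 of 7) summed to 1688 in Tet1-null library 1 and to 1940 in Tdg-heterozygous library 2. They summed to 623.5 in double-heterozygous library 0, within the 87.2 to 1192 of the other 9. In Tdg-heterozygous library 2, 1053 of the sum was Krt20. There 5 of the 7 were above 200% of their control means, while Guca2a was at 116.4% and Aqp8 at 32.3%. Neutrophil markers (7 of 7) were at 1646, 6886 and 3421, above the 150.6 to 1294 of the others. Smooth muscle markers (6 of 6) were at 657.5 in Tet1-null library 1 and fibroblast markers (8 of 8) at 678.6, each the highest of 12, while the remaining libraries held 46.5 to 195.3 and 141.2 to 409.7. Endothelial markers (5 of 5) were highest in Tet1-null library 1 at 56.2 and next in double-heterozygous library 0 at 43.7, and lay between 10.25 and 28.8 in the other 10. Macrophage markers (5 of 5) ranged from 134.5 to 327.9, with 144.0 in Tet1-null library 1. The highest sum, in Tdg-heterozygous library 2, was mostly Cd14, at 279.7. Cd68, Csf1r, C1qa and C1qb were there at 75.8, 67.9, 31.6 and 21.5% of their control means. None of these lists has a gene under 0.1 FPKM in every library, and their part in the members' low values was not tested.

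**Figure D2:**
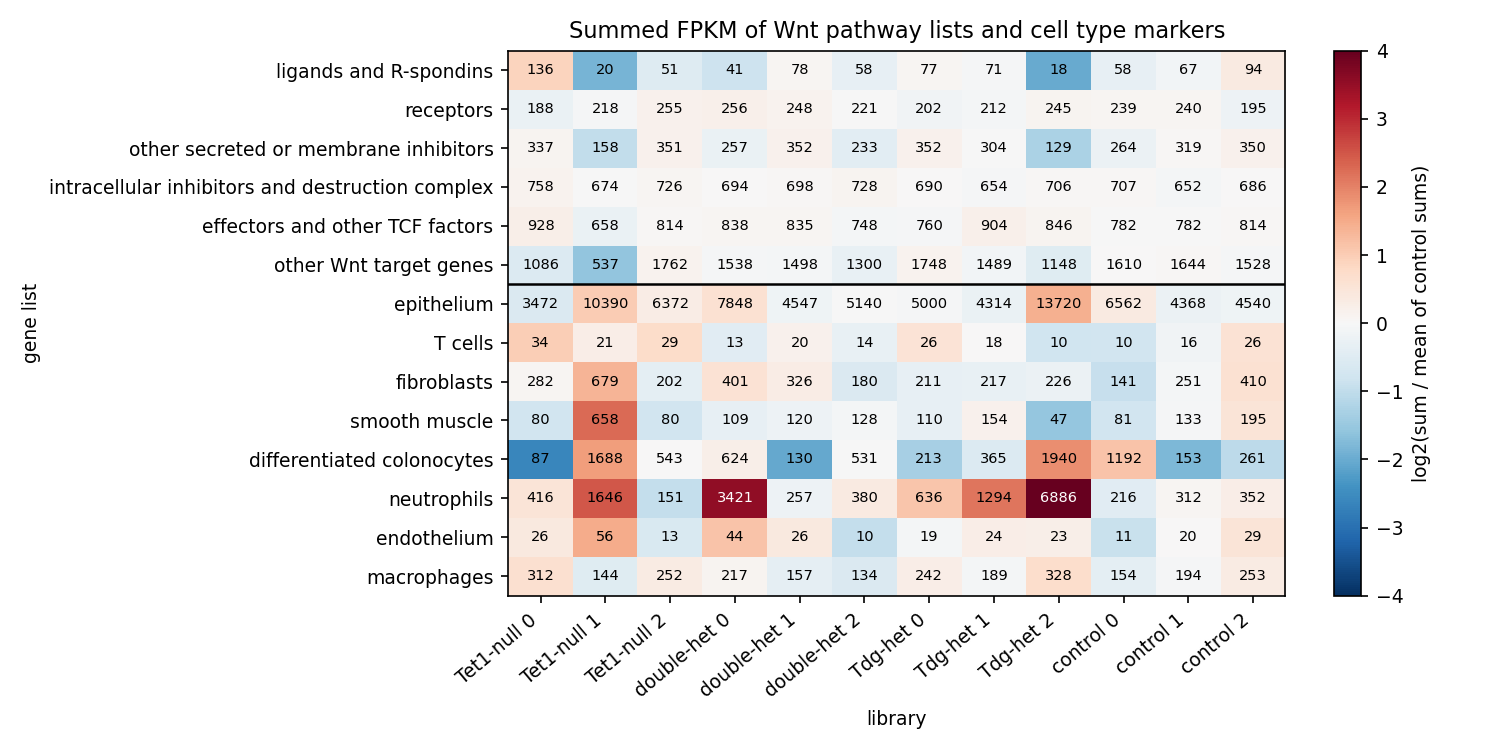
Each cell prints the summed FPKM of a gene list (row) in a library (column), and its colour is the log2 ratio of that sum to the mean of the 3 control sums. Wnt pathway lists without the 10 members are above the line and cell type markers below it, where neutrophil markers reach 6886 in Tdg-het 2 and smooth muscle markers 657.5 in Tet1-null 1.

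Of the intracellular inhibitors, Axin2 is a scaffold of the destruction complex (chr11:108920349-108950783, plus strand, mm10). In Tet1-null libraries 0, 1 and 2 its level was 172.6, 9.98 and 96.1 FPKM, and 62.9, 129.1 and 128.0 in the double-heterozygous ones. It was 122.5, 120.4 and 21.1 in the Tdg-heterozygous libraries and 110.3, 122.8 and 104.2 in the controls. The Tet1-null group held 2 libraries below all controls and 1 above them, and the other mutant groups held 1 below and 2 above or within the control range, so each overlapped the control group. The control mean was 11.3 times the level of Tet1-null library 1, 5.32 times that of Tdg-heterozygous library 2 and 1.79 times that of double-heterozygous library 0. Nkd1 binds Dishevelled and limits its signal (chr8:88521354-88594884, plus strand). Across the Tet1-null libraries its level was 161.0, 1.25 and 79.1 FPKM, and 27.7, 112.0 and 98.6 across the double-heterozygous ones. It was 104.3, 116.9 and 3.92 in the Tdg-heterozygous libraries and 103.7, 83.8 and 102.9 in the controls. The pattern was that of Axin2 with deeper lows, 77.4-fold, 24.7-fold and 3.49-fold under the control mean in the same 3 libraries.

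Among the secreted inhibitors, Notum is an enzyme that inactivates Wnt proteins by removing their lipid (chr11:120653788-120661175, minus strand). Its level was 273.3, 0.70 and 166.6 FPKM in the Tet1-null group, 49.8, 182.4 and 179.2 in the double-heterozygous, 195.4, 201.8 and 8.53 in the Tdg-heterozygous and 166.6, 137.3 and 200.8 in the control libraries. Its value in Tet1-null library 1 was 240.3-fold under the control mean, the widest such gap of the 10 members, and within the Tet1-null group the highest library was 390.5 times the lowest. Wif1 binds Wnt proteins outside the cell (chr10:121033960-121100650, plus strand). It stood at 457.5, 5.06 and 270.7 FPKM in the Tet1-null group, 54.4, 464.9 and 176.5 in the double-heterozygous, 347.9, 488.1 and 23.7 in the Tdg-heterozygous and 332.9, 228.0 and 365.4 in the control libraries. It was the most abundant member in 8 of the 12 libraries, while in the 3 low libraries this was Rnf43. Its gap to the control mean in double-heterozygous library 0, 5.68-fold, was the widest of the 10 there.

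Dkk2 is a secreted protein that binds the LRP co-receptors (chr3:132085292-132180304, plus strand). Its level was 34.1, 0.477 and 54.2 FPKM in the Tet1-null group, 22.9, 30.7 and 17.6 in the double-heterozygous, 32.1, 33.3 and 12.8 in the Tdg-heterozygous and 17.9, 33.3 and 34.9 in the control libraries. Its highest value was in Tet1-null library 2, unlike that of any other member. Its 12.8 FPKM in Tdg-heterozygous library 2 was 2.24-fold under the control mean, the smallest gap of the 10 there and close to that of Tcf7, although its 0.477 FPKM in Tet1-null library 1 was 60.0-fold under the mean. In double-heterozygous library 0 it lay within the range of the controls.

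Of the membrane inhibitors, Apcdd1 is a glycoprotein that interferes with Wnt reception (chr18:62922231-62961179, plus strand). Its level was 156.9, 2.00 and 26.5 FPKM in the Tet1-null group, 11.3, 49.9 and 79.2 in the double-heterozygous, 39.9, 98.6 and 2.12 in the Tdg-heterozygous and 71.5, 27.9 and 60.2 in the control libraries. It varied most of the 10 outside the 3 low libraries, by 5.91 times between the lowest and the highest of the other 9. Rnf43 and Znrf3 are related ubiquitin ligases that remove Frizzled receptors from the cell surface, an action that R-spondins block (chr11:87662722-87735539, plus strand, and chr11:5276324-5444847, minus strand). Rnf43 was at 181.6, 16.7 and 109.7 FPKM in the Tet1-null group, 72.4, 121.1 and 99.0 in the double-heterozygous, 113.9, 125.1 and 32.1 in the Tdg-heterozygous and 103.3, 119.2 and 92.3 in the control libraries. Znrf3 was at 27.3, 3.05 and 11.9, then 9.76, 17.0 and 15.5, then 12.8, 20.0 and 4.03, and in the controls at 16.5, 15.6 and 13.3 FPKM. Both were low in the same libraries as the other members, at 15.9% and 20.1% of the control mean in Tet1-null library 1, the highest shares of the 10 there.

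The factors that bind DNA with beta-catenin differed between each other. Lef1 (chr3:131110471-131224356, plus strand) had 22.9, 0.331 and 11.6 FPKM in the Tet1-null group, 3.08, 14.4 and 13.9 in the double-heterozygous, 15.4, 13.4 and 0.622 in the Tdg-heterozygous and 12.5, 10.9 and 17.0 in the control libraries. Tcf7 (chr11:52252371-52283014, minus strand) had 43.9, 3.67 and 28.6, then 21.3, 31.1 and 22.3, then 27.1, 26.7 and 13.0, and in the controls 33.5, 26.1 and 29.3 FPKM. In the 3 low libraries Lef1 was 40.8-fold, 21.7-fold and 4.38-fold under its control mean and Tcf7 8.09-fold, 2.29-fold and 1.39-fold, in the order Tet1-null 1, Tdg-heterozygous 2 and double-heterozygous 0. Both genes are also active in T cells. T cell markers summed to 10.1 to 34.4 FPKM over the 12 libraries, with Cd3e at 0.127 to 1.03 and Cd8a at 0.016 to 0.401 FPKM. The sum was highest in Tet1-null library 0, where Lef1 and Tcf7 were highest too, and lowest in Tdg-heterozygous library 2, where both were low. Thy1, a gene that fibroblasts also express, was itself highest in the first, at 17.2 FPKM, and lowest in the second, at 2.96. With Thy1 left out of the sum, neither of these libraries would be its extreme. In Tdg-heterozygous library 2, Cd3d, Cd3e, Cd2 and Cd8a were at 125.0, 111.9, 140.5 and 439.0% of their control means. Cd3g, Cd4, Cd5, Lck and Thy1 were there at 94.98, 93.4, 72.2, 52.58 and 33.68%. The sum was 20.9 in Tet1-null library 1, where Lef1 and Tcf7 were lowest, but 16.3 of this was Thy1. It was 10.4 in control library 0, where Lef1 was at 12.5 FPKM. Cd3d, Cd3e, Cd3g, Cd2 and Cd8a were highest in Tet1-null library 2, at 1.86, 1.03, 9.04, 1.55 and 0.401 FPKM. Lef1 and Tcf7 were there at 85.7 and 96.5% of their control means. Cd5, Lck and Thy1 were highest in Tet1-null library 0, and Cd4 in double-heterozygous library 2. The part of T cells in these values was not tested.

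**Figure D3:**
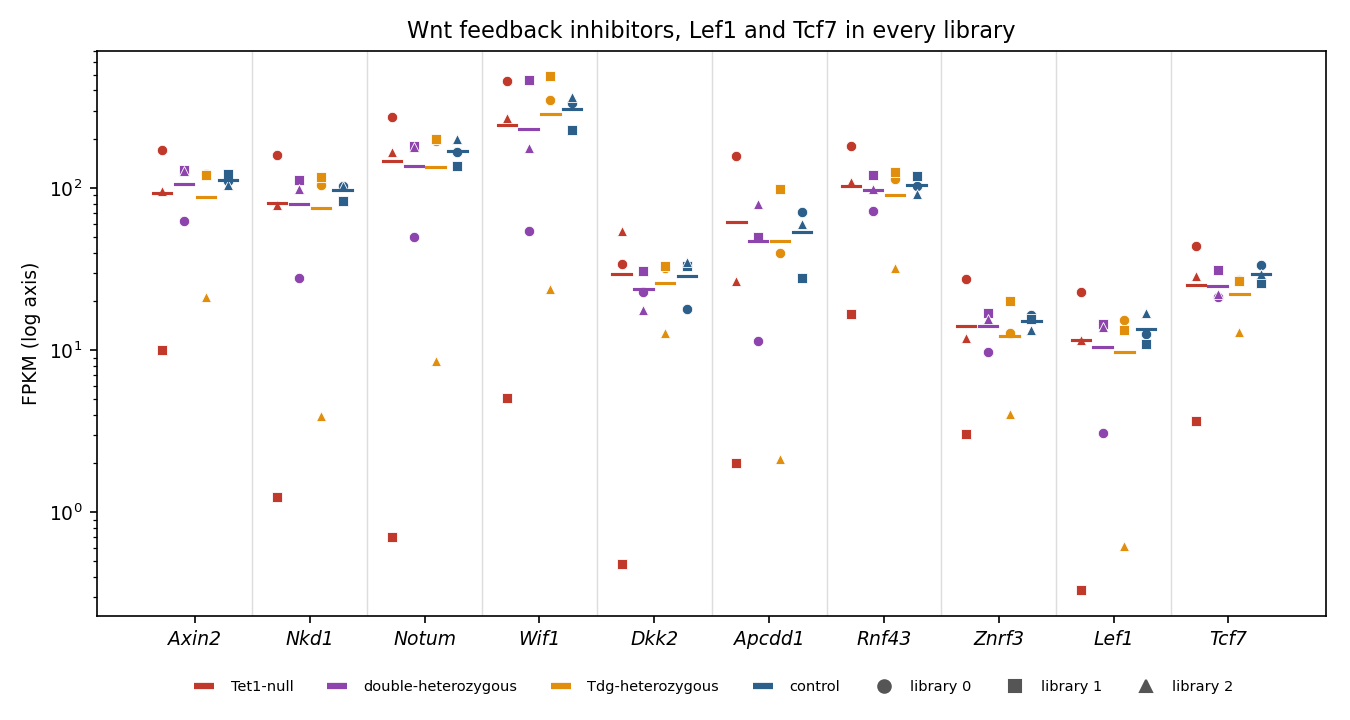
FPKM (log axis) of each gene in every library, coloured by group, with a symbol for the library number and a short line at the mean of the 3 libraries of a group. For each gene the square of the Tet1-null group and the triangle of the Tdg-heterozygous group lie lowest. The 3 control libraries lie between 104.2 and 122.8 FPKM for Axin2 and are widest apart for Apcdd1, between 27.9 and 71.5.

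Ratios between members compare their proportions in the low libraries with those in the other 9. Rnf43 over Znrf3 was 6.25 to 9.19 in the 9, within which lay the 7.99 of Tdg-heterozygous 2 and the 7.42 of double-heterozygous 0, and it was lower in Tet1-null library 1, at 5.47. Lef1 over Tcf7 was 0.374 to 0.622 in 9 libraries, but 0.0902, 0.0479 and 0.144 in the same 3. Notum over Axin2 was 1.12 to 1.93 in the 9 and 0.0701, 0.403 and 0.791 in the 3, and Nkd1 over Axin2 was 0.682 to 0.988 against 0.125, 0.186 and 0.441. Notum over Nkd1 stayed within or near the 1.61 to 2.11 of the 9 in double-heterozygous library 0 (1.79) and Tdg-heterozygous library 2 (2.17), and was 0.560 in Tet1-null library 1. Dkk2 over Notum was raised in all 3, at 0.682, 1.502 and 0.461 beside 0.0984 to 0.325. The gaps to the other libraries were thus unequal among members.

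**Figure D4:**
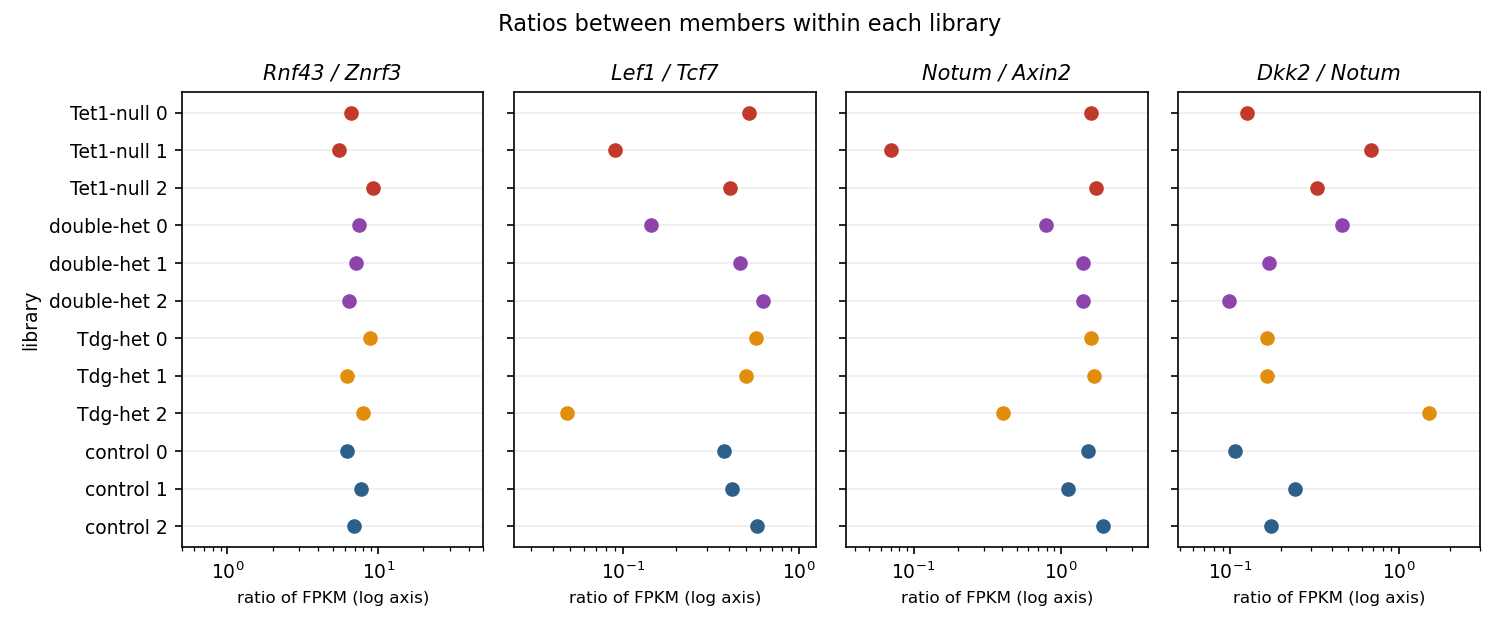
Ratio of FPKM between pairs of members (log axes) in each library (rows), coloured by group. Rnf43 over Znrf3 is 5.47 in Tet1-null 1 and 6.25 to 9.19 in the other libraries, while Lef1 over Tcf7 is as low as 0.0479 and Notum over Axin2 as low as 0.0701 in single libraries.

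The spread of the members within groups was in the upper part of all genes tested. With 12 libraries the pooled SD within groups on the log2(FPKM + 1) scale ran from 0.908 for Znrf3 to 2.45 for Notum, larger than in 89.1% and 99.4% of the 15150 genes tested, whose median was 0.326. Without the 3 low libraries it ran from 0.264 for Tcf7 to 1.02 for Apcdd1, larger than in 57.9% and 94.96% of these genes, whose median was then 0.230. Since those libraries were picked by the members' own values, the narrower range of the 9 is a description. Among the 9, Axin2 differed by 1.80 times between its lowest and highest library, and the other 9 members by 1.97 (Rnf43 and Tcf7) to 5.91 times (Apcdd1).

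Tet1-null and control samples did not differ in any member beyond the spread between libraries. On the log2(FPKM + 1) scale the difference was -1.97 ± 1.79 (SE) for Notum, -1.74 ± 1.62 for Wif1, -1.66 ± 1.59 for Nkd1, -0.99 ± 0.95 for Axin2 and -0.73 ± 0.69 for Tcf7. Notum's 95% interval ran from -5.95 to 2.01 and the smallest interval, that of Znrf3 around -0.50, from -1.99 to 0.99, so the intervals hold large differences in both directions. By limma 0 of 10 members were called (adjusted p = 1 for each), beside 2 genes or 0.0132% of the 15150 tested, and 0 of 10 passed an unadjusted p of 0.05 (lowest 0.297, Notum), beside 1.63%. Every member had overlapping groups, whereas 2.2% of all tested genes were lower and 3.44% higher in every Tet1-null library than in every control. The mean difference was below 0 for 10 of 10 members, with a median of -0.998, beside 44.9% of all tested genes and a median of 0.029. This direction rests on Tet1-null library 1: without it 0 of 10 differences were below 0 and their median was 0.27.

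Double-heterozygous and control samples were closer. The mean difference was -0.87 ± 1.62 for Wif1, -0.54 ± 1.13 for Lef1, -0.50 ± 1.59 for Nkd1 and -0.15 ± 0.95 for Axin2, and the median of the 10 was -0.35, beside 0.048 for all tested genes. By limma 0 of 10 members were called (adjusted p = 1), beside 3 genes or 0.0198%, and 0 of 10 passed an unadjusted p of 0.05 (lowest 0.602), beside 1.17%. All 10 had overlapping groups, beside 2.01% of tested genes lower and 5.78% higher in every double-heterozygous library. The difference was below 0 for 10 of 10 members and for 41.5% of all tested genes. Without double-heterozygous library 0 the median of the members was 0.093, and with all 3 low libraries left out 3 of 10 were below 0 (Wif1, Dkk2 and Tcf7).

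Tdg-heterozygous and control samples showed the same picture through another library. The mean difference was -1.31 ± 1.59 for Nkd1, -1.21 ± 1.79 for Notum, -1.11 ± 1.52 for Apcdd1, -0.98 ± 1.13 for Lef1 and -0.19 ± 1.10 for Dkk2, with a median of -0.81 beside -0.014 for all tested genes. By limma 0 of 10 members were called (adjusted p = 1), beside 3 genes or 0.0198%, and 0 of 10 had an unadjusted p under 0.05 (lowest 0.409, Lef1), beside 0.898%. Groups overlapped for all 10, beside 2.4% of tested genes lower and 1.61% higher in every Tdg-heterozygous library. The difference was below 0 for 10 of 10 members and for 52.8% of all tested genes. Without Tdg-heterozygous library 2 it was below 0 for Tcf7 alone, at -0.13, and the median was 0.19. These 3 comparisons share the control samples, so their common direction is not repeated evidence.

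Double-heterozygous and Tdg-heterozygous samples, which differ in 1 Tet1 allele, also overlapped in every member. Their mean difference, double-heterozygous minus Tdg-heterozygous, was 0.80 ± 1.59 for Nkd1, 0.71 ± 1.79 for Notum, 0.66 ± 1.52 for Apcdd1 and 0.56 ± 0.95 for Axin2, with a median of 0.40 over the 10 beside 0.053 for all tested genes. By limma 0 of 10 members were called (adjusted p = 1), and the same held for all tested genes (0, or 0.0%). An unadjusted p under 0.05 was reached by 0 of 10 members (lowest 0.568) and 1.52% of tested genes. No member had separate groups (0 of 10), beside 0.898% of tested genes lower and 4.7% higher in every double-heterozygous library. The difference was below 0 for Dkk2 alone, at -0.049, beside 40.1% of tested genes. The sign turned with the libraries used: the median was -0.56 with Tet1-null 1 and Tdg-heterozygous 2 left out, and -0.049 with double-heterozygous 0 left out as well. The test of any difference among the 4 groups called 0 of 10 members (limma, adjusted p = 1, lowest unadjusted p 0.704), beside 4 genes or 0.0264%, and 0.917% of tested genes had an unadjusted p under 0.05.

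With the 3 low libraries left out, 2 libraries remained in each mutant group and limma still called 0 of 10 members in each of the 4 comparisons and in the test over all groups, with 0 at an unadjusted p under 0.05. The differences from the controls were then 0.20 to 0.63 for Tet1-null, -0.23 to 0.34 for double-heterozygous and -0.13 to 0.44 for Tdg-heterozygous samples. For Axin2 in the Tdg-heterozygous group the 95% interval was -0.42 to 0.64, beside -2.83 to 1.42 with 12 libraries. The left-out libraries were picked by the members' own values, which narrows the spread. The calls and intervals without them are therefore a description and not a test.

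**Figure D5:**
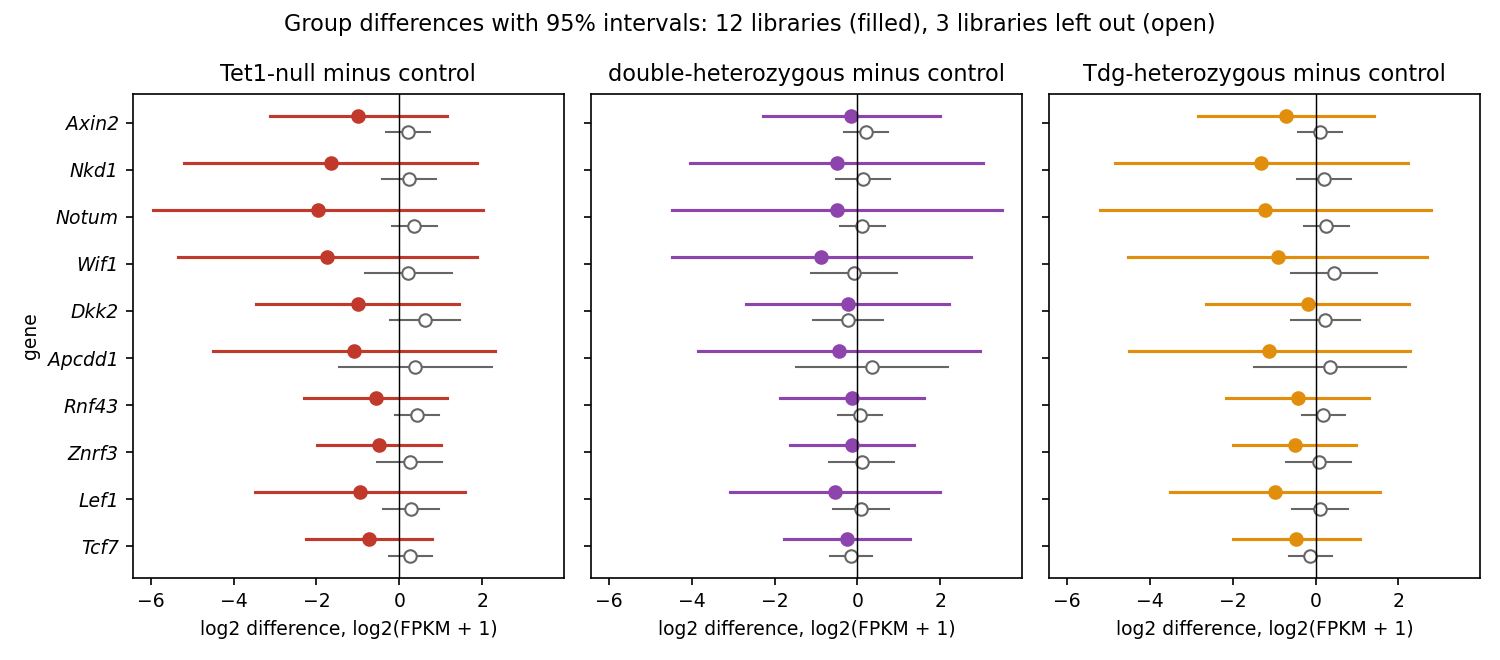
Difference of each gene between a mutant group and the controls in log2(FPKM + 1), with 95% intervals from limma, for all 12 libraries (filled points) and with Tet1-null 1, Tdg-heterozygous 2 and double-heterozygous 0 left out (open points). Every interval spans 0, the filled points lie between -1.97 and -0.13, and the open points between -0.23 and 0.63. The left-out libraries were picked by the members' own values, so the narrower intervals of the open points are a description.

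Other genes of the pathway were described by lists that leave the 10 members out. In none of the 6 lists and 4 comparisons was a gene called by limma (0 higher, 0 lower, adjusted p = 1). An unadjusted p under 0.05 was reached by the receptor genes Fzd9 and Ror2, the target gene Myc and the ubiquitin ligase gene Fbxw11 between Tet1-null and control samples. Between the other groups it was reached by Fbxw11 (double-heterozygous and control), Fzd9 (Tdg-heterozygous and control) and Chd8 (double-heterozygous and Tdg-heterozygous). These genes are named after their values were seen. Myc, a driver of proliferation, was at 36.6, 21.5 and 53.9 FPKM in the Tet1-null and 55.0, 50.9 and 56.1 in the control libraries, so its groups overlapped.

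In the low libraries the lists departed from the controls to unequal degrees. These libraries were picked by the members' own low values, so the members' shares follow in part from that choice and are a description. In Tet1-null library 1, 10 of 10 members were under 25% of the control mean, beside 6.71% of the 15074 tested genes with a control mean above 0. In Tdg-heterozygous library 2 this held for 6 of 10 members and 6.47% of these genes, and in double-heterozygous library 0 for 3 of 10 (Wif1, Apcdd1 and Lef1) and 2.97%. Of 17 other Wnt target genes, 6, 4 and 1 were under 25% in these libraries and 0, 1 and 1 above 200%. The gene above 200% was Cd44, named after its values were seen. Mmp7, a matrix protease and the most abundant of these targets, was at 37.2, 228.7 and 623.4 FPKM there, beside 335.3 to 784.4 in the other 9. Phlda1 and Slc12a2, next in abundance, were at 44.8, 136.2 and 96.9% and at 87.6, 118.4 and 135.9% of their control means. Of 9 Wnt ligand and R-spondin genes tested, 5, 3 and 2 were under 25% and 0, 1 and 2 above 200%. Among the first were Wnt6 with 0.825, 1.00 and 4.57 FPKM beside 19.6 to 58.4 in the other 9, and Wnt10a with 0.301, 1.86 and 4.53 beside 8.23 to 47.4.

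Genes of the pathway's core were nearer to the controls. Of 19 destruction complex and intracellular inhibitor genes, 0 were under 25% of the control mean in any of these 3 libraries, and their sum was 652.2 to 758.4 FPKM over all 12. Aes and Csnk1a1, with means of 210.7 and 198.5 FPKM, weigh most in this sum. In the order above, 3, 4 and 1 of these genes were under 50%, beside 13.4, 14.6 and 8.04% of all tested genes. Above 200% were 1, 1 and 0, in both cases Tle4, named after its values were seen. Of 12 effectors and other TCF factors also 0 were under 25%. Ctnnb1 itself was at 403.9, 578.6 and 568.2 FPKM in the 3 low libraries, and at 484.1 to 657.9 in the other 9. The other TCF factors Tcf7l1 and Tcf7l2, named here after their values were seen, were not low there: Tcf7l1 was at 36.5, 13.9 and 11.1 FPKM beside 2.16 to 16.2 in the other 9, and Tcf7l2 at 27.2, 30.1 and 25.3 beside 14.7 to 25.9. Of 18 receptor genes, 5, 3 and 2 were under 25% and 2, 3 and 2 above 200% of the control mean. The stem cell receptor Lgr5 was at 5.14 and 13.5 FPKM in Tet1-null library 1 and Tdg-heterozygous library 2, but at 53.8 in double-heterozygous library 0, and it was also low, at 13.6, in Tet1-null library 0, where 8 of the 10 members were highest. Of 10 other secreted or membrane inhibitors, 1, 3 and 0 were under 25%, and 3, 1 and 2 were above 200% of the control mean. Kremen2, a receptor for Dkk proteins named here after its values were seen, was at 6.38, 6.05 and 6.25 FPKM beside 0.251 to 3.50 in the other 9. Dkk3 was at 7.51, 2.52 and 12.5 FPKM beside 20.8 to 57.0, and its relatives Dkk1 and Dkk4 were under 0.1 FPKM in all 12.

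The genes whose pattern over the 12 libraries was closest to the mean of the members were ranked by the root mean square difference of log2(FPKM + 1), each gene centred on its own mean, among 9819 genes with a mean of at least 5 FPKM, whose median was 1.39. The nearest was Robo1, a receptor for Slit guidance proteins, at 0.21, followed by Pdgfrl (0.27), the transcription factor genes Sp5 (0.29) and Prox1 (0.32), which the list of other Wnt targets also holds, Sbspon (0.32), the T-box factor gene Tbx3 (0.34), Tubb4a (0.35), Plagl1, Fxyd6 and Prr18 (0.36 each). Robo1 was at 0.762, 3.34 and 10.7 FPKM in the low libraries in the order above and at 18.2 to 42.3 in the other 9. Prox1 was at 1.46, 3.55 and 15.3 beside 39.2 to 100.9. These 10 genes had their lowest value in Tet1-null library 1 and the next in Tdg-heterozygous library 2, as the members did. They were chosen for likeness to the members and measured in the same libraries, so this is not separate evidence.

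Members differed in which gene followed them most closely. The smallest distances were those of Avil to Rnf43 (0.17), Abhd12 to Znrf3 (0.18), Robo1 to Axin2 (0.19), Tubb4a to Lef1 (0.20) and Dos to Tcf7 (0.20). Prox1 was nearest to both Nkd1 (0.33) and Apcdd1 (0.48), Spock2 to Notum (0.33) and Pnliprp1 to Wif1 (0.45). Among the members themselves, Axin2 lay closest to their common mean (0.27) with Lef1 next (0.29), and Notum farthest (0.80).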

How the data were processed

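Per the labels, TRIzol was used to obtain total RNA, 500 ng of it went into each TruSeq library, and TopHat2 placed 75-nt single-end Illumina reads on mm10. The submitters' processing notes also name Cufflinks and Cuffdiff. Versions, annotation and library normalization are not given in the sources used here. The authors deposited FPKM values, and columns were tied to groups by their letters. Of 25705 gene IDs, 25119 were found in GENCODE M21, the source of gene coordinates.

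Genes with at least 1 FPKM in at least 3 of 12 libraries were tested (15150, all 10 members among them) with limma 3.58.1 in R 4.3.3 on log2(FPKM + 1). This scale understates changes of low genes. 1 model with 4 group means and a variance trend was fitted, with Benjamini-Hochberg adjustment over all genes of a comparison. Genes count as called below an adjusted p of 0.05. The script was tested on simulated data. Other pseudocounts, filters, scalings, library weights and left-out libraries were tried. The members, the pathway and marker lists and the rule for named genes (all members, at most 3 of a list by mean FPKM, nearest genes by pattern) were chosen with earlier results of these data known. Leaving out 2 or 3 libraries together was chosen after seeing the data. The nearest gene of 1 member is not reported here.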

Additional observations from a re-analysis of the deposited data

How the results depend on the processing

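Under the 22 alternatives run, 0 of 10 members were called by limma in each comparison, and the lowest adjusted p of a member was 0.572. The median log2 difference of the members moved by less than the spread between libraries (SD 1.57) throughout. This SD was taken over all libraries, the low ones among them, so a median could change sign and still stay within it. No paired analysis was possible because the columns carry the numbers 0 to 2, which are not the replicate numbers of the labels. The sign of the median turned when the low library of a compared group was left out (Tet1-null 1, Tdg-heterozygous 2 or, against the controls, double-heterozygous 0). With library weights the median stayed below 0 for Tet1-null (-0.27) and double-heterozygous (-0.17) against control samples. The weights of Tet1-null libraries 0, 1 and 2 were 0.457, 0.256 and 5.25, so the weighted mean of this group rests mainly on library 2. For Tdg-heterozygous against control samples the library weights turned Wif1, Dkk2, Apcdd1, Rnf43 and Znrf3 above 0. For double-heterozygous minus Tdg-heterozygous samples they turned Nkd1, Notum, Wif1, Apcdd1, Rnf43, Znrf3, Lef1 and Tcf7 below 0, and the median with them. Between the heterozygous groups Wif1 and Dkk2, whose differences were near 0, also turned without other libraries, and Wif1 with median-ratio scaling. Depth is unknown, and FPKM values near 0 are imprecise.

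The number of genes called over all tested genes moved with the settings. Between Tet1-null and control samples it was 2, and 1 with a pseudocount of 5, 4 with no filter, 0 with a mean of at least 5 FPKM, 1 with the compared groups alone, 6 with 3 libraries left out and 236 with library weights, and 1 to 3 when each library was left out in turn. Between double-heterozygous and control samples it was 3, and 5 with no filter, with library weights or with 2 libraries left out, 8 with 3 left out, 12 with the compared groups alone, and 2 to 5 leaving out 1 library. Between Tdg-heterozygous and control samples it was 3, and 1 when a mean of 5 FPKM was required, 5 with 2 or 3 libraries left out, 6 with the compared groups alone, and 2 to 5 leaving out 1 library. Between double-heterozygous and Tdg-heterozygous samples it was 0, and 2 with 3 libraries left out, 1 with the compared groups alone, and 0 to 2 leaving out 1 library. The test over the 4 groups called 4, and 1 when a mean of 5 FPKM was required and 9 with 3 libraries left out. The cause was not tested.

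For Tet1-null and control samples, these differences changed sign. With 2 or with 3 of the libraries that stood apart left out, the difference was 0.20 for Axin2, 0.23 for Nkd1, 0.36 for Notum, 0.22 for Wif1, 0.63 for Dkk2, 0.39 for Apcdd1, 0.43 for Rnf43, 0.25 for Znrf3, 0.28 for Lef1 and 0.26 for Tcf7. With library weights, it was 0.59 for Dkk2 and 0.040 for Rnf43. Single libraries left out gave -1.79 to 0.20 for Axin2, -2.86 to 0.23 for Nkd1, -3.31 to 0.36 for Notum, -2.90 to 0.22 for Wif1, -1.99 to 0.63 for Dkk2, -2.47 to 0.39 for Apcdd1, -1.25 to 0.43 for Rnf43, -1.15 to 0.25 for Znrf3, -1.80 to 0.28 for Lef1 and -1.38 to 0.26 for Tcf7.

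For double-heterozygous and control samples, these differences changed sign. With 3 left out, the difference was 0.19 for Axin2, 0.12 for Nkd1, 0.12 for Notum, 0.34 for Apcdd1, 0.069 for Rnf43, 0.098 for Znrf3 and 0.087 for Lef1. With library weights, it was 0.074 for Axin2, 0.12 for Apcdd1 and 0.023 for Znrf3. Single libraries left out gave -0.32 to 0.19 for Axin2, -0.86 to 0.12 for Nkd1, -0.81 to 0.12 for Notum, -1.01 to 0.34 for Apcdd1, -0.30 to 0.069 for Rnf43, -0.27 to 0.098 for Znrf3 and -0.87 to 0.087 for Lef1.

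For Tdg-heterozygous and control samples, these differences changed sign. With 2 or with 3 of the libraries that stood apart left out, the difference was 0.11 for Axin2, 0.20 for Nkd1, 0.26 for Notum, 0.44 for Wif1, 0.24 for Dkk2, 0.34 for Apcdd1, 0.19 for Rnf43, 0.083 for Znrf3 and 0.10 for Lef1. With library weights, it was 0.17 for Wif1, 0.063 for Dkk2, 0.16 for Apcdd1, 0.10 for Rnf43 and 0.061 for Znrf3. Single libraries left out gave -1.13 to 0.11 for Axin2, -2.10 to 0.20 for Nkd1, -1.95 to 0.26 for Notum, -1.71 to 0.44 for Wif1, -0.49 to 0.24 for Dkk2, -2.16 to 0.34 for Apcdd1, -0.77 to 0.19 for Rnf43, -0.95 to 0.083 for Znrf3 and -1.56 to 0.10 for Lef1.

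For double-heterozygous and Tdg-heterozygous samples, these differences changed sign. With 2 of the libraries that stood apart left out, the difference was -0.26 for Axin2, -0.70 for Nkd1, -0.75 for Notum, -1.31 for Wif1, -0.79 for Apcdd1, -0.32 for Rnf43, -0.21 for Znrf3, -0.65 for Lef1 and -0.13 for Tcf7. With 3 left out, it was -0.070 for Nkd1, -0.13 for Notum, -0.52 for Wif1, -0.12 for Rnf43, -0.018 for Lef1 and -0.027 for Tcf7. With median-ratio scaling, it was -0.051 for Wif1. With library weights, it was -0.041 for Nkd1, -0.068 for Notum, -0.83 for Wif1, -0.039 for Apcdd1, -0.13 for Rnf43, -0.038 for Znrf3, -0.017 for Lef1 and -0.068 for Tcf7. Single libraries left out gave -0.26 to 0.98 for Axin2, -0.70 to 1.59 for Nkd1, -0.75 to 1.46 for Notum, -1.31 to 0.84 for Wif1, -0.48 to 0.18 for Dkk2, -0.79 to 1.71 for Apcdd1, -0.32 to 0.64 for Rnf43, -0.21 to 0.82 for Znrf3, -0.65 to 1.06 for Lef1 and -0.13 to 0.38 for Tcf7. In the comparisons with the controls the upper ends are the values without Tet1-null library 1, double-heterozygous library 0 or Tdg-heterozygous library 2 in turn. The cause of these changes of sign was not tested beyond leaving libraries out.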
